A study of Mus musculus with 16 samples.

Results

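Lpl, Cd36, Fabp4 and Plin4 encode proteins by which cells take up fatty acids and keep them in droplets, and their RNA was followed here in the liver of 16 mice. The 4 genes were chosen by symbol from the deposited tables, which list 5205 genes in all, and all 4 are among the 752 genes listed for both genotypes. The mice were males on a C57BL6 background whose Thbs1 gene, which encodes thrombospondin 1 (TSP1), was floxed in both genotypes. TSP1F/F mice were the littermate controls, and in TSP1ΔPf4 mice a Pf4-Cre transgene, which is active in megakaryocytes and platelets, deletes Thbs1 in those cells. Each genotype was fed a low-fat (LF) diet or the AMLN diet, a diet rich in fat, sugars and cholesterol that induces steatohepatitis, for 32 weeks. There were 4 mice in each of the 4 groups, and the labels give no age.

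Lipoprotein lipase, the product of Lpl, cuts triglyceride in circulating lipoproteins so that fatty acids can enter cells, and CD36 is a membrane receptor that takes up fatty acids and modified lipoproteins and also binds TSP1. FABP4 carries fatty acids in the cytosol of adipocytes and macrophages, and perilipin 4, the product of Plin4, coats lipid droplets, above all in adipocytes. In the healthy adult liver these proteins are better known from cells other than hepatocytes or from other organs, and they are often studied in fatty liver.

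Values are given as CPM, counts scaled to a library total of 1000000, and the library totals recovered from the files lay between 17127965 and 39753019 counts, with medians of 18908942 (LF) and 27661650 (AMLN) in the TSP1F/F groups and of 18838184 (LF) and 27148200 (AMLN) in the TSP1ΔPf4 groups. Each table lists only genes that differed between diets in the study's own test, at an unadjusted value under 0.05, so the 4 genes are in the tables because they differed between diets, and the diet tests below are not independent of that selection. The genotype and interaction tests cover only genes selected in this way for both genotypes. Those tests, and the shares and medians given beside them, are not independent of the selection either. Genes outside the tables are not analysed here. Thbs1 is listed for TSP1F/F mice only, so it does not check the genotype labels. In whole liver, fewer cells of a type and less RNA per cell cannot be told apart.

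The genes lie on 4 chromosomes of mm10. Lpl (ENSMUSG00000015568) lies at chr8:68880491-68907448 on the forward strand. Cd36 (ENSMUSG00000002944, chr5:17781690-17888801), Fabp4 (ENSMUSG00000062515, chr3:10204088-10208576) and Plin4 (ENSMUSG00000002831, chr17:56100591-56109803) lie on the reverse strand. Lpl, Cd36 and Fabp4 overlap no other gene in GENCODE, and Plin4 shares 17 bases with Hdgfl2 on the opposite strand. The promoters of Cd36 and Plin4, the members with an entry in the RefSeq promoter table used, are shown to give the sequence context of 2 genes called on the AMLN diet in TSP1ΔPf4 mice, and Lpl and Fabp4 have no entry there. The sequences are those of RefSeq (GRCm38.p6) and cover the 250 bases before the start annotated by RefSeq, read 5′ to 3′ on the reverse strand, with the searched motifs in capitals. The Cd36 window, chr5:17835897-17836146, lies within the span of the gene, since other transcripts start further upstream, and the Plin4 window is chr17:56109783-56110032, whose last bases, with its CCAAT match, lie within the GENCODE span of Plin4.
Cd36: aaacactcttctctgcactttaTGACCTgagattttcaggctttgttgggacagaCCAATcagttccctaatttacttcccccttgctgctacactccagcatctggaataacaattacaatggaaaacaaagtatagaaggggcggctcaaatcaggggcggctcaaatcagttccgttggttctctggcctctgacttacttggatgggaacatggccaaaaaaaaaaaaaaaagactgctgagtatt
Plin4: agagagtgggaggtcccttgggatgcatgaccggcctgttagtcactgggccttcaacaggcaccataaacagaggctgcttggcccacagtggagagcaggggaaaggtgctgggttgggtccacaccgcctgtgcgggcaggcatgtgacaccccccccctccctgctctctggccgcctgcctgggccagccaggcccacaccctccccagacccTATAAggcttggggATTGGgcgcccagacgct
The motifs searched on both strands were AGGTCA (the core letters bound by many nuclear receptors), TATAA (the TATA box), CCAAT (the CCAAT box) and CACGTG (the E box), which overlap each other in neither window. The Cd36 window held 1 AGGTCA on the opposite strand and 1 CCAAT, and the Plin4 window held 1 TATAA and 1 CCAAT on the opposite strand. Among the same windows of 32851 RefSeq promoters, 14.0% held AGGTCA, 22.8% held TATAA, 33.8% held CCAAT and 6.02% held CACGTG, so promoters with such matches are common. These matches are descriptions of letters and not sites.

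The first comparison asked how the AMLN diet changed these RNAs in TSP1F/F mice. Lpl rose most among the 4, by 15.1 times between group means. Lpl had 8.40, 8.31, 20.8 and 8.93 CPM in the 4 LF-fed mice and 110, 117, 162 and 315 CPM in the 4 mice fed AMLN. The groups did not overlap, although replicate 3 was high among the LF-fed mice and replicate 4 among the AMLN-fed mice. The means were 11.6 ± 6.15 (SD, n = 4) and 176 ± 95.5 (SD, n = 4), which edgeR fitted as 3.92 on the log2 scale (standard error 0.47, Benjamini-Hochberg adjusted p = 0.0138). Calls required this adjusted value to be under 0.05 and the log2 fold change to exceed 0.25 in size. Leaving out 1 mouse at a time gave log2 fold changes of Lpl between 3.48 and 4.36, and the call was lost in 1 of these 8 fits, that without LF replicate 4 (edgeR, adjusted p = 0.0681).

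Fabp4 was also called higher in AMLN-fed TSP1F/F mice, by 5.73 times between group means. It had 2.97, 7.40, 3.36 and 4.73 CPM in the LF-fed mice and 36.4, 23.6, 24.8 and 21.0 CPM in the AMLN-fed mice. The highest LF value was well below the lowest AMLN value. The means were 4.62 ± 2.00 (SD, n = 4) and 26.4 ± 6.81 (SD, n = 4), and the fitted log2 fold change was 2.52 (standard error 0.36, edgeR with Benjamini-Hochberg adjustment, adjusted p = 0.0214). The call remained in 3 of 8 fits with 1 mouse left out, those without LF replicate 2, LF replicate 3 or AMLN replicate 4, while the log2 fold change stayed between 2.32 and 2.84 and the adjusted p of the other fits between 0.0521 and 0.0821 (edgeR).

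Plin4 did not pass the test in this genotype, although its groups did not overlap. It had 5.27, 14.6, 3.92 and 19.9 CPM in the LF-fed mice against 55.9, 34.0, 43.5 and 27.0 CPM in the AMLN-fed mice. The LF-fed mice differed among themselves by up to 5.08 times, the widest spread of any of the 4 genes in any group. Its log2 fold change was 1.87 (standard error 0.50, 95% confidence interval 0.78 to 2.96), with an adjusted p = 0.173 (edgeR, Benjamini-Hochberg).

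Cd36 did not pass the test either, and its groups overlapped. It had 91.5, 280, 210 and 89.6 CPM in the LF-fed mice and 225, 351, 248 and 347 CPM in the AMLN-fed mice. LF replicates 2 and 3 lay close to the AMLN-fed mice, and AMLN replicates 2 and 4 were above all LF-fed mice. For Cd36 the log2 fold change was 0.80 (standard error 0.39, 95% confidence interval -0.05 to 1.65), with an adjusted p = 0.549 (edgeR, Benjamini-Hochberg), below the median log2 fold change of 1.15 over the 2096 genes tested.

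In TSP1F/F mice 2 of the 4 genes were thus called higher and none lower. Of the 2096 genes tested in this table, 2.39% were called higher and 0.0954% lower. All AMLN-fed mice were above all LF-fed mice for 3 of the 4 genes and for 36.6% of all genes tested. For each of these 3 genes the two-sided exact permutation test of the difference in mean log2(CPM + 1) gave p = 0.0286, which is the lowest value possible with 4 mice per group, and for Cd36 it gave p = 0.114.

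**Figure D1:**
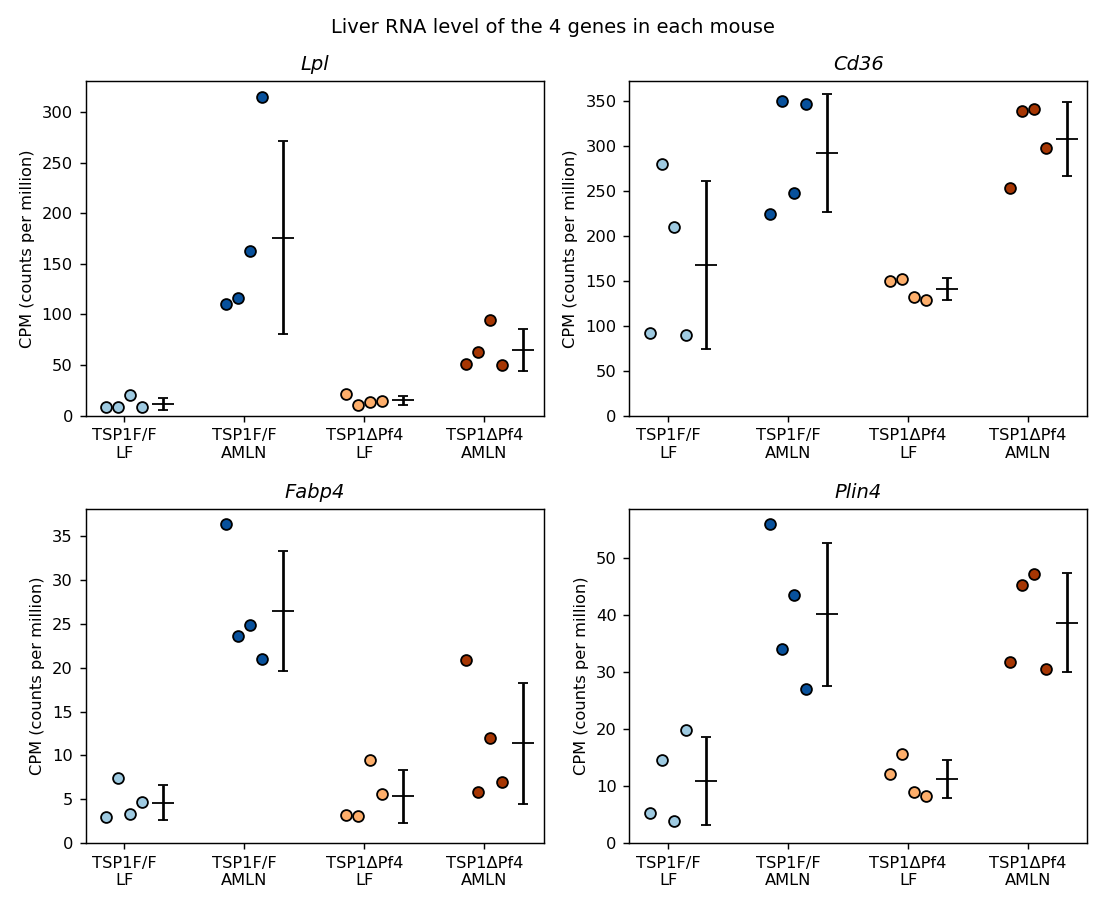
CPM of each gene in each mouse, by group, with the mean and SD (n = 4) drawn beside the 4 points of each group and every axis starting at 0. Lpl reached 110 to 315 CPM in the TSP1F/F mice on AMLN and 50.3 to 94.5 CPM in the TSP1ΔPf4 mice on AMLN, while Cd36 and Plin4 overlapped between these groups.

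The second comparison asked the same of TSP1ΔPf4 mice, and here Lpl, Cd36 and Plin4 were called higher. Lpl had 21.3, 11.01, 13.8 and 14.1 CPM in the LF-fed mice and 51.3, 63.1, 94.5 and 50.3 CPM in the AMLN-fed mice. The groups did not overlap, and the ratio of the means, 64.8 ± 20.6 (SD, n = 4) to 15.1 ± 4.39 (SD, n = 4), was 4.31. Its log2 fold change was 2.11 (standard error 0.28, edgeR with Benjamini-Hochberg adjustment, adjusted p = 0.0227).

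Plin4 had 12.1, 15.7, 9.05 and 8.22 CPM in the LF-fed mice and 31.8, 45.3, 47.1 and 30.5 CPM in the AMLN-fed mice of this genotype. The lowest AMLN-fed mouse was about as far above the highest LF-fed mouse as the AMLN-fed mice were spread, and the means differed by 3.43 times. Its log2 fold change was 1.78 (standard error 0.26, edgeR with Benjamini-Hochberg adjustment, adjusted p = 0.0316), close to the 1.87 of the other genotype, where the spread among LF-fed mice was larger.

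Cd36 had 149, 153, 132 and 129 CPM in the LF-fed mice and 253, 339, 341 and 298 CPM in the AMLN-fed mice. The LF-fed mice were close to each other (SD 8.61% of the mean, against 55.8% in LF-fed TSP1F/F mice), and no LF-fed mouse reached the AMLN-fed mice. The log2 fold change was 1.13 (standard error 0.20, edgeR with Benjamini-Hochberg adjustment, adjusted p = 0.0406).

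Fabp4 was the gene of the 4 that did not pass the test in TSP1ΔPf4 mice. It had 3.24, 3.09, 9.52 and 5.62 CPM in the LF-fed mice and 20.9, 5.80, 11.99 and 6.93 CPM in the AMLN-fed mice. AMLN replicates 2 and 4 lay within the range of the LF-fed mice, and replicate 1 was the highest. The log2 fold change was 1.09 (standard error 0.46, 95% confidence interval 0.08 to 2.11), with an adjusted p = 0.231 (edgeR, Benjamini-Hochberg), and it was 0.62 without AMLN replicate 1. With DESeq2 and its own size factors it was 1.49, with an adjusted p = 0.0120, and Fabp4 was then called.

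Of the 3089 genes tested in TSP1ΔPf4 mice, 1.46% were called higher and 1.52% lower, and in 20.4% all AMLN-fed mice were above all LF-fed mice, as in 3 of the 4 genes here. The median log2 fold change over all genes tested was -0.54, on the opposite side of 0 from the 4 genes. The exact permutation test gave p = 0.0286 for Lpl, Cd36 and Plin4 and p = 0.114 for Fabp4. The calls in this table were close to the threshold: when single mice were left out, Lpl was called in 4 of 8 fits (edgeR, adjusted p from 0.0189 to 0.0953), Plin4 in 3 (0.0230 to 0.112) and Cd36 in 2 (0.0236 to 0.148), while the log2 fold changes stayed between 1.87 and 2.32, 1.65 and 1.98, and 1.08 and 1.21. The mice whose omission left each gene called were LF replicates 1 and 3 and AMLN replicates 1 and 4 for Lpl, LF replicates 1 and 3 and AMLN replicate 4 for Plin4, and LF replicate 3 and AMLN replicate 4 for Cd36.

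**Figure D2:**
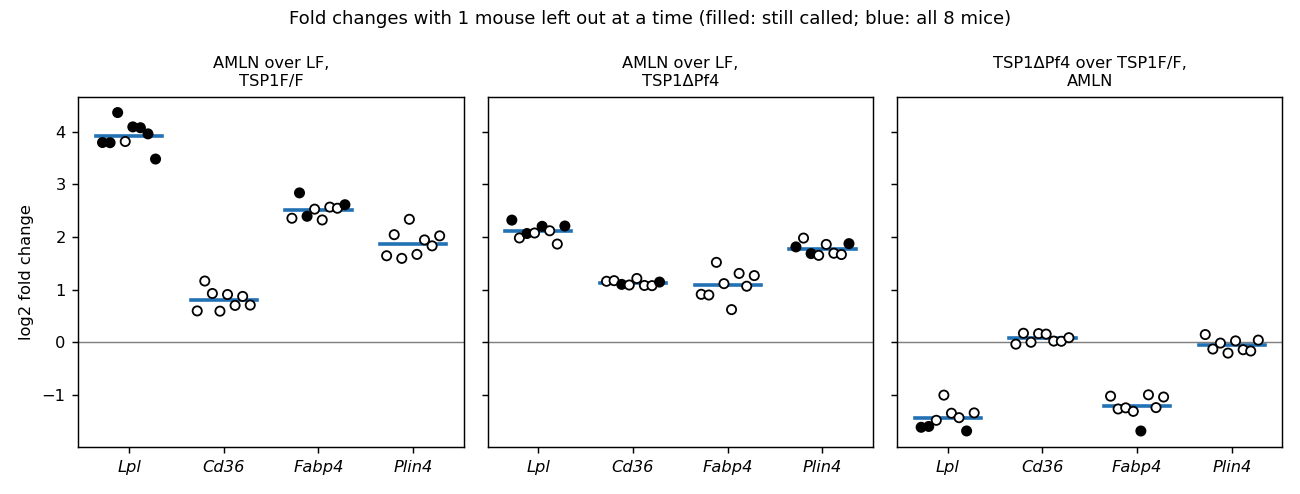
Log2 fold change of each gene with 1 mouse left out at a time (points, filled where the gene was still called) and with all 8 mice (blue lines), for the diets in each genotype and for the genotypes on the AMLN diet. Lpl stayed at or above 3.48 in TSP1F/F mice and at or below -1.0 between the AMLN-fed genotypes.

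The third comparison asked whether AMLN-fed TSP1ΔPf4 mice differed from AMLN-fed TSP1F/F mice, over the 733 genes of both tables that were tested. Lpl was lower in AMLN-fed TSP1ΔPf4 mice, 64.8 against 176 CPM, or 0.368 times the mean of AMLN-fed TSP1F/F mice. The highest TSP1ΔPf4 mouse (94.5 CPM) was below the lowest TSP1F/F mouse (110 CPM). The log2 fold change was -1.44 (standard error 0.38, 95% confidence interval -2.25 to -0.63), with an adjusted p = 0.0311 (edgeR, Benjamini-Hochberg), and the exact permutation test gave p = 0.0286.

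Of the genes tested, 8.46% were called lower in AMLN-fed TSP1ΔPf4 mice and 0.546% higher, and 1 of the 4 genes was called. The median log2 fold change over all genes tested was -0.38, so Lpl lay 1.06 below it. With TMM scaling that median moved to -0.10 and Lpl was at -1.11 with an adjusted p = 0.0791 (edgeR), which ended the call, at a distance of 1.01 from the median. The call was also lost in 5 of 8 fits with 1 mouse left out, those without TSP1F/F replicates 3 or 4 or TSP1ΔPf4 replicates 1, 2 or 4, with log2 fold changes between -1.68 and -1.0 over all 8 fits and an adjusted p of up to 0.0966 (edgeR). The smallest difference, -1.0, was that without TSP1F/F replicate 4, the mouse with 315 CPM.

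Fabp4 was at 0.431 times the TSP1F/F mean in AMLN-fed TSP1ΔPf4 mice, and the groups did not overlap (20.9 CPM in the highest TSP1ΔPf4 mouse, 21.0 CPM in the lowest TSP1F/F mouse). The log2 fold change was -1.21 (standard error 0.40, 95% confidence interval -2.07 to -0.35), and with an adjusted p = 0.0854 (edgeR, Benjamini-Hochberg) the gene was not called. The exact permutation test gave p = 0.0286. All TSP1ΔPf4 mice were below all TSP1F/F mice for Lpl and Fabp4 and for 12.4% of the genes tested, and above them for none of the 4 and for 2.59%. Without TSP1ΔPf4 replicate 1 the log2 fold change of Fabp4 was -1.68 (edgeR, adjusted p = 0.0282), and without TSP1ΔPf4 replicate 2 it was -0.99. The gene was not called in 7 of the 8 fits with 1 mouse left out (edgeR, adjusted p up to 0.207). DESeq2 with its own size factors gave -0.88 (adjusted p = 0.227) and TMM scaling gave -0.94 (edgeR, adjusted p = 0.238), both further from a call. DESeq2 with the authors' size factors, an alternative chosen after seeing the data, gave -1.25 (adjusted p = 0.0260), which passes the threshold. With the replicate number as a block edgeR gave -1.36 (adjusted p = 0.00236), which also passes it. The same block ended the call of Fabp4 for the diet in TSP1F/F mice (edgeR, adjusted p = 0.0911).

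Cd36 and Plin4 overlapped between the AMLN-fed genotypes and did not pass the test. Cd36 had 293 ± 65.8 CPM (SD, n = 4) in TSP1F/F and 308 ± 41.5 CPM (SD, n = 4) in TSP1ΔPf4 mice, and its log2 fold change of 0.07 had a 95% confidence interval of -0.50 to 0.65. Plin4 had 40.1 ± 12.5 CPM (SD, n = 4) and 38.7 ± 8.73 CPM (SD, n = 4), and its log2 fold change of -0.05 had a 95% confidence interval of -0.69 to 0.59. The intervals allow differences of up to these sizes, and the value of Plin4 turned to 0.21 with TMM scaling and to 0.27 with DESeq2. Relative to the median of all genes tested, Cd36 lay 0.45 and Plin4 0.32 higher.

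**Figure D3:**
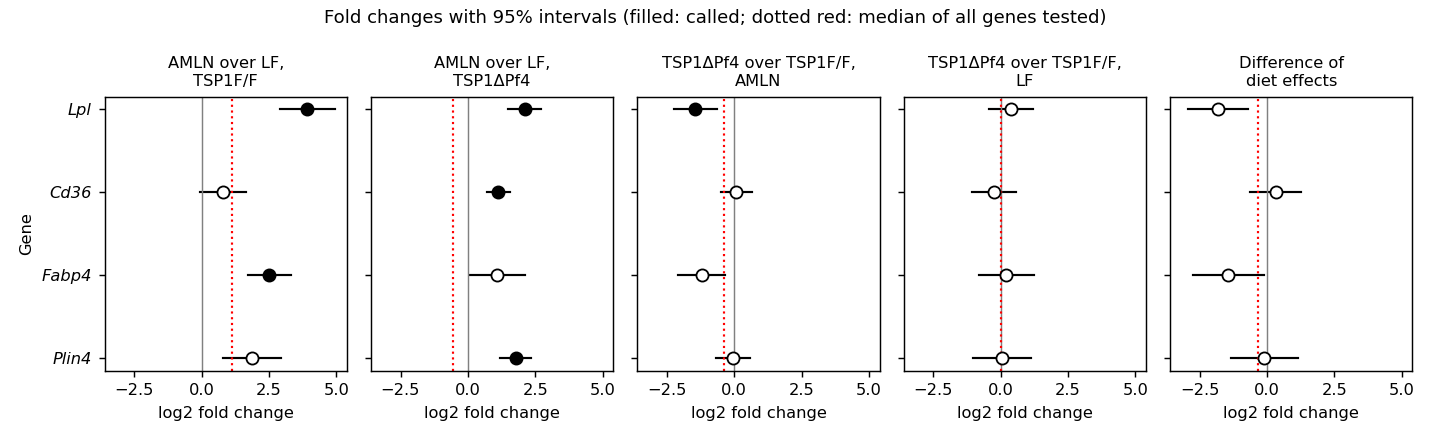
Log2 fold change of each gene (points, filled where called) with its 95% confidence interval (lines) in the 5 comparisons, and the median of all genes tested (dotted red lines). Between the AMLN-fed genotypes Lpl (-1.44) and Fabp4 (-1.21) lie left of 0 and Cd36 (0.07) and Plin4 (-0.05) lie near 0.

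Ratios between genes of the same library do not depend on the library total, and they are given as descriptions. The ratio of Lpl counts to Cd36 counts was 0.490, 0.332, 0.654 and 0.907 in the TSP1F/F mice on AMLN and 0.202, 0.186, 0.277 and 0.169 in the AMLN-fed TSP1ΔPf4 mice. These ranges did not overlap, whereas on the LF diet the ratio was 0.0297 to 0.0997 in TSP1F/F and 0.0721 to 0.143 in TSP1ΔPf4 mice. The ratio of Fabp4 to Plin4 counts was 0.571 to 0.776 in the TSP1F/F mice on AMLN, against 0.657, 0.128, 0.255 and 0.227 in the AMLN-fed TSP1ΔPf4 mice, of which replicate 1 lay within the TSP1F/F range. Lpl to Plin4 was 1.97 to 11.7 and 1.39 to 2.01, Lpl to Fabp4 was 3.03 to 15.02 and 2.46 to 10.9, and Cd36 to Fabp4 was 6.18 to 16.6 and 12.1 to 58.5, and each of these pairs of ranges overlapped. Cd36 to Plin4 was 4.01 to 12.9 and 7.25 to 9.79.

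Within the AMLN-fed TSP1F/F group the 4 genes did not all follow each other. Fabp4 and Plin4 were both highest in replicate 1, then in replicates 3, 2 and 4, whereas Lpl was highest in replicate 4 and lowest in replicate 1. In the AMLN-fed TSP1ΔPf4 mice Lpl and Plin4 had the same order, replicates 3, 2, 1 and 4, and Fabp4 was highest in replicate 1.

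On the LF diet the genotypes did not differ in any of the 4 genes by the test. The log2 fold changes of TSP1ΔPf4 over TSP1F/F mice were 0.37 for Lpl (95% confidence interval -0.44 to 1.19), -0.25 for Cd36 (-1.07 to 0.56), 0.22 for Fabp4 (-0.80 to 1.23) and 0.04 for Plin4 (-1.04 to 1.13), with edgeR's Benjamini-Hochberg adjusted p from 0.776 to 0.990. All 4 pairs of groups overlapped, where 3.44% of the genes tested had every TSP1ΔPf4 mouse above and 1.56% had every one below, and the intervals still allow changes of over 1 on the log2 scale for each gene. No gene of the 640 tested was called (0% higher, 0% lower) by edgeR, 44 had an unadjusted p under 0.05, and DESeq2 called 1 higher.

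The last test asked whether the response to the diet differed between genotypes, as an interaction term over all 16 mice. No member was called. By edgeR 0.409% of 734 genes were called with an interaction below 0 and 0% with one above 0, and 110 had an unadjusted p under 0.05. The interaction of Lpl, the log2 response of TSP1ΔPf4 less that of TSP1F/F mice, was -1.81 (standard error 0.54, 95% confidence interval -2.94 to -0.69, edgeR with Benjamini-Hochberg adjustment, adjusted p = 0.0736). It was called without LF-fed TSP1F/F replicate 3, the mouse with 20.8 CPM, at -2.26 (edgeR, adjusted p = 0.0379), and by DESeq2 with the authors' size factors at -1.82 (adjusted p = 0.0183). It was not called in the other 15 of 16 fits with 1 mouse left out (edgeR, adjusted p up to 0.160). DESeq2 with its own size factors (-1.53, adjusted p = 0.107) and TMM scaling (-1.55, edgeR, adjusted p = 0.137) did not call it either. Fabp4 was at -1.43 (standard error 0.63, edgeR, adjusted p = 0.291), Cd36 at 0.33 (standard error 0.45, edgeR, adjusted p = 0.854) and Plin4 at -0.10 (standard error 0.59, edgeR, adjusted p = 0.976). The median over the genes tested was -0.34.

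To compare levels between the genes, values per length are needed, and the order then depends on the length taken. Cd36 had the highest FPKM (counts scaled to gene length and library total) of the 4 genes in all 16 mice, with group means from 39.2 to 85.8 FPKM on the deposited gene lengths. In AMLN-fed TSP1F/F mice the order was Cd36, Lpl, Plin4 and Fabp4 in 4 of 4 mice, with means of 81.5, 16.8, 6.94 and 5.89 FPKM. The ranges of Plin4 and Fabp4 across these mice overlapped (4.68 to 9.68 and 4.67 to 8.10 FPKM), and in replicate 4 the genes were nearly equal (4.68 and 4.67 FPKM).

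The deposited length of Fabp4, 4489 bases, is the whole span of the gene with its introns, 5.01 times its longest coding transcript of 896 bases in GENCODE, and that of Lpl, 10478 bases, is 2.55 times its longest coding transcript of 4115 bases. For Cd36 and Plin4 the deposited lengths (3590 and 5777 bases) were close to those of their transcripts (3399 and 5756 bases). Per longest coding transcript, the means in AMLN-fed TSP1F/F mice were 86.1 FPKM for Cd36, 42.8 for Lpl, 29.5 for Fabp4 and 6.97 for Plin4, and Fabp4 stood above Plin4 in 4 of 4 mice. Lpl and Fabp4 overlapped on this scale (26.8 to 76.5 and 23.4 to 40.6 FPKM). In the LF-fed groups Lpl, Fabp4 and Plin4 had group means of 1.03 to 1.95 FPKM on the deposited lengths, and their order varied between mice. Fabp4 had the fewest reads behind it, 57 to 163 counts per LF-fed mouse.

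**Figure D4:**
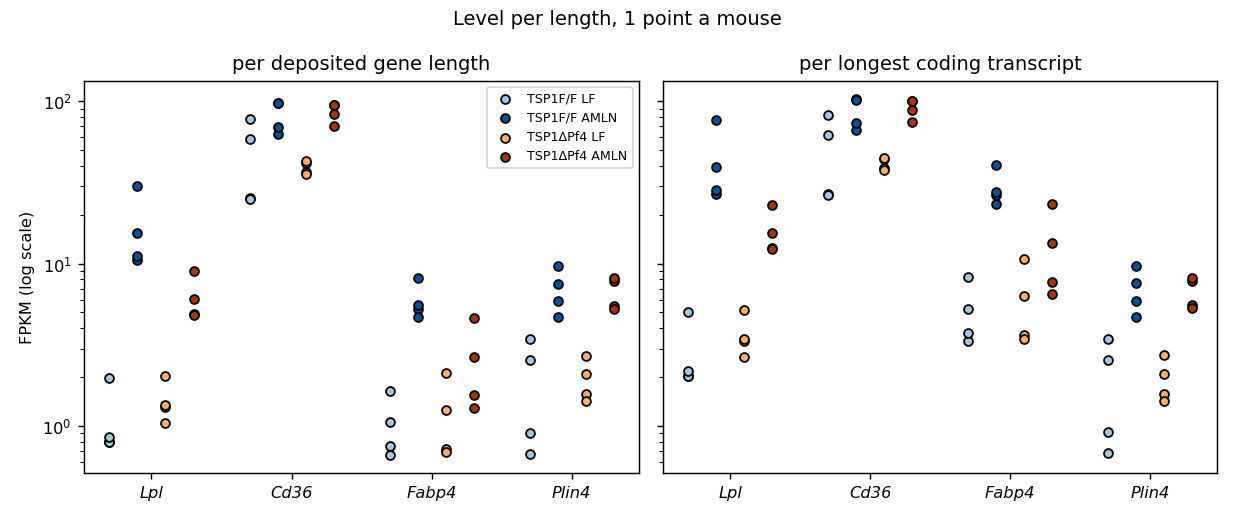
FPKM of each gene in each mouse on a log axis, with the deposited gene length (left) and the longest coding transcript (right) as the length. Cd36 is highest in every mouse on both scales, and Fabp4 moves from below Plin4 to above it in AMLN-fed TSP1F/F mice when the transcript is used.

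The wider pathway was followed through 92 other genes of lipoprotein lipolysis, fatty acid uptake and binding, droplet coats, triglyceride synthesis and hydrolysis, and their regulators. Of these, 17 are listed for TSP1F/F and 30 for TSP1ΔPf4 mice, and 15 and 29 could be tested for the diet. In TSP1F/F mice none was called (edgeR, 13 with an unadjusted p under 0.05, 6 of them higher, against 1680 of all 2096 genes tested, a share set by how the table was selected). Of all genes tested in that genotype 2.39% were called higher and 0.0954% lower. The median log2 fold change over the 15 tested was -0.82, against 1.15 over all genes tested. In TSP1ΔPf4 mice 1 was called higher and none lower, against 1.46% and 1.52% of all genes tested. The median over the 29 tested was -0.47, close to the -0.54 over all genes tested.

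The gene called in TSP1ΔPf4 mice was Cidec, which enlarges lipid droplets by fusing them, with means of 23.4 CPM on the LF and 106 CPM on the AMLN diet (log2 fold change 2.18, standard error 0.40, edgeR with Benjamini-Hochberg adjustment, adjusted p = 0.0441). In TSP1F/F mice Cidec was at 27.7 and 53.2 CPM (log2 fold change 0.94, edgeR, adjusted p = 0.371). The interaction of Cidec was 1.24 (edgeR, adjusted p = 0.306) and its log2 fold change between the AMLN-fed genotypes was 1.00 (edgeR, adjusted p = 0.167). Neither was called, so a difference between genotypes was not established for Cidec. Its relative Cidea had log2 fold changes of 3.62 and 3.43 in TSP1F/F and TSP1ΔPf4 mice, with standard errors of 1.27 and 1.01, and was not called. G0s2, an inhibitor of triglyceride breakdown on droplets, was at -1.47 and -1.18, not called in either genotype. Of the other perilipins, Plin3 is listed for TSP1ΔPf4 mice, at 0.85 and not called.

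Of the 14 partners, relatives and inhibitors of lipoprotein lipase, 2 are listed for TSP1F/F and 7 for TSP1ΔPf4 mice, and none was called. Endothelial lipase, Lipg, was at -1.32 in TSP1F/F mice and Apoc1 at -0.95 in TSP1ΔPf4 mice. Apoa5, which aids lipolysis, had log2 fold changes of -0.92 and -0.68 in TSP1F/F and TSP1ΔPf4 mice, and Apoc3, which slows it, was at -1.16 in TSP1ΔPf4 mice (edgeR, adjusted p = 0.0530). Among 15 uptake receptors and transporters, Vldlr, a lipoprotein receptor, was at 1.44 and 1.01, and Msr1, a scavenger receptor of macrophages, was at 1.88 in TSP1F/F mice, none of them called. Cav1, the caveolar protein of endothelium and adipocytes, was at 1.88 in TSP1F/F and -0.95 in TSP1ΔPf4 mice, not called in either. Among binding proteins, Fabp7 was at 2.49 in TSP1F/F mice and Fabp1, the main fatty acid binding protein of hepatocytes, was at -0.92 and -0.70, again not called. Fabp2 was at -1.18 in TSP1ΔPf4 mice and was not called.

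All 4 listed genes of triglyceride synthesis that were tested in TSP1ΔPf4 mice had log2 fold changes above 0, the highest being 1.12 for Gpat3, and none was called. Mogat1, the gene of this list tested in TSP1F/F mice, was at 1.42 and not called. Of the 6 genes of triglyceride hydrolysis listed for TSP1ΔPf4 mice 4 were below 0, the lowest being Aadac at -1.13, and none was called. The 2 listed for TSP1F/F mice, Ces1d and Ces1f, were both below 0 and not called. Pparg, the nuclear receptor that drives adipocyte genes, is listed for TSP1ΔPf4 mice, at 1.00 (edgeR, adjusted p = 0.0900).

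Between the AMLN-fed genotypes 10 of the 92 genes could be tested and 1 was called lower, against 8.46% of all genes tested. This was Cav1, at 1.71 ± 0.275 CPM (SD, n = 4) in TSP1ΔPf4 and 7.73 ± 6.80 CPM (SD, n = 4) in TSP1F/F mice (log2 fold change -2.17, standard error 0.58, edgeR with Benjamini-Hochberg adjustment, adjusted p = 0.0333). The TSP1F/F mice were spread from 1.98 to 17.4 CPM, and the lowest lay next to the highest TSP1ΔPf4 mouse, at 1.94 CPM. Of the 10 genes, 7 had a value above 0 and 3 below, with a median of 0.24, against -0.38 over all genes tested.

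**Figure D5:**
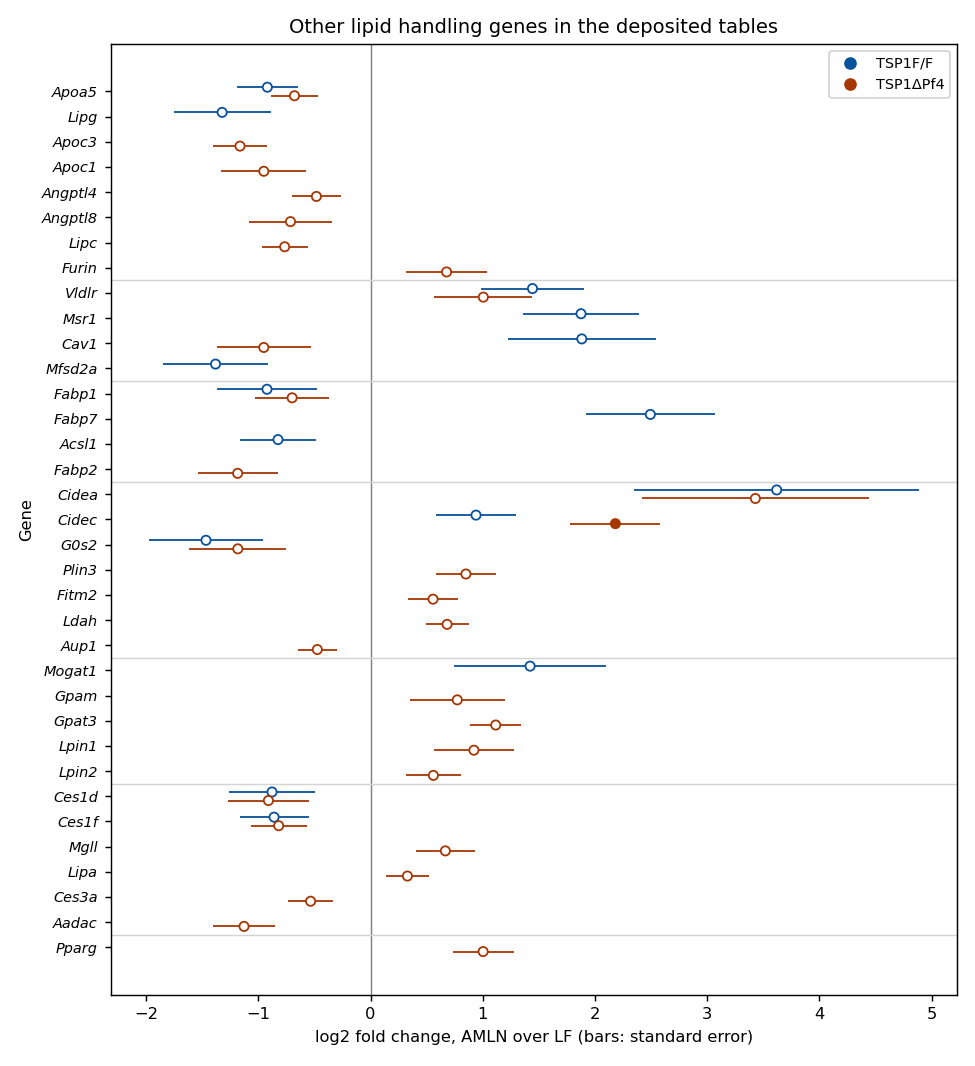
Log2 fold change of AMLN-fed over LF-fed mice for the other genes of the pathway that could be tested, in TSP1F/F (blue) and TSP1ΔPf4 mice (brown), with standard errors. Grey lines separate the lists, and the filled point, Cidec in TSP1ΔPf4 mice, is the gene that was called.

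Cell type markers moved with these groups. The listed macrophage markers, 9 of 12 in both tables (Cd9, Spp1 and Ly6c2 are not among them), had summed levels of 437, 556, 675 and 2381 CPM in replicates 1 to 4 of the TSP1F/F mice on AMLN, against 157, 132, 145 and 237 CPM in replicates 1 to 4 of the TSP1ΔPf4 mice on AMLN. Lyz2 made up most of these sums, with means of 622 of 1012 CPM in the TSP1F/F and 109 of 168 CPM in the TSP1ΔPf4 group. The order of the sums need not be that of each marker. Lpl had the same order of replicates as the sum in the TSP1F/F group, with 315 CPM in replicate 4, and Fabp4 and Plin4 were highest in replicate 1 and lowest in replicate 4. In the TSP1ΔPf4 group Lpl did not have the order of the sum, being lowest in replicate 4 (50.3 CPM), where the sum was highest. Between diets these markers went from 84.7 to 447 CPM on LF to 500 to 2502 CPM on AMLN in TSP1F/F mice (10 of 12 listed), and from 45.1 to 111 CPM to 132 to 237 CPM in TSP1ΔPf4 mice. By edgeR 4 of the 10 were called higher on AMLN in TSP1F/F mice, against 2.39% of all genes tested. In TSP1ΔPf4 mice 2 of 9 were, against 1.46%. Between the AMLN-fed genotypes 6 of 9 were called lower in TSP1ΔPf4 mice, against 8.46%. None was called the other way in these comparisons.

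The listed genes of other marker lists also moved with the diet, but a marker is listed only because it differed between diets. Their shifts and the separation of their ranges follow in part from that selection, as do those of the macrophage markers above. In TSP1F/F mice the Kupffer cell markers (6 of 8 listed) went from 66.5 to 257 CPM on LF to 332 to 849 CPM on AMLN, and the stellate cell markers (3 of 8) from 10.6 to 27.3 CPM to 77.5 to 165 CPM. Endothelial markers (3 of 10) went from 9.93 to 26.6 CPM to 40.5 to 46.5 CPM, and hepatocyte markers (3 of 8) were lower on AMLN, 2913 to 6173 CPM against 6831 to 9215 CPM. These ranges did not overlap in any of the 4 lists. Cd5l made up most of the Kupffer cell sum on AMLN, with a mean of 295 of 481 CPM. Of the 6 Kupffer cell markers 4 were higher on AMLN, while Marco (log2 fold change -2.75) and Cd163 (-3.71) were lower, and none was called. Of the 3 stellate cell markers Col3a1 was called higher (log2 fold change 2.87, edgeR, adjusted p = 0.0214), and Pdgfrb and Col1a1 were higher but not called. In TSP1ΔPf4 mice the Kupffer cell markers (4 of 8) went from 44.8 to 99.2 CPM to 137 to 179 CPM and the hepatocyte markers (4 of 8) from 21218 to 31160 CPM to 10560 to 16895 CPM. Stellate cell markers (3 of 8), at 14.6 to 25.5 CPM on LF and 21.9 to 82.2 CPM on AMLN, and endothelial markers (3 of 10), at 38.8 to 46.9 CPM and 46.0 to 59.3 CPM, overlapped between diets in this genotype. Vsig4 of the Kupffer cell list was called higher on AMLN in this genotype (log2 fold change 1.16, edgeR, adjusted p = 0.0448). No other marker of the 4 lists was called there. Single markers of this genotype went against the sums of their lists, and none of these was called. They were Cd163 of the Kupffer cell list (log2 fold change -1.79), Kdr of the endothelial list (-0.46) and Hnf4a of the hepatocyte list (0.60). The markers listed differ between the tables, so sums are not compared between genotypes here.

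Kupffer cell markers (4 of 8) summed to 235 to 635 CPM in AMLN-fed TSP1F/F and 137 to 179 CPM in AMLN-fed TSP1ΔPf4 mice, and stellate cell markers (3 of 8) to 77.5 to 165 CPM and 21.9 to 82.2 CPM, which overlapped. Of the 4 Kupffer cell markers 3 were below 0 and Cd5l (log2 fold change -1.31) was called lower, while Cd163 was at 1.62 and not called. Of the stellate cell markers Col3a1, a fibrillar collagen, was called lower in TSP1ΔPf4 mice (29.1 against 96.2 CPM, log2 fold change -1.72, edgeR with Benjamini-Hochberg adjustment, adjusted p = 0.0182), while Pdgfrb was at -0.07 and Col1a1 at -0.08. Endothelial markers, of which 2 of 10 are listed for both, overlapped between these groups (30.7 to 36.8 and 29.3 to 43.8 CPM), as did the hepatocyte markers Ttr and Serpina1a, the 2 of 8 listed (2695 to 5876 and 4235 to 5651 CPM). Of 10 adipocyte markers Cidea is listed for both genotypes, at 2.18 to 34.1 CPM in AMLN-fed TSP1F/F and 4.61 to 40.2 CPM in AMLN-fed TSP1ΔPf4 mice, and Adrb3 for TSP1F/F mice, while Adipoq, Lep, Retn, Cfd and Plin1 are not analysed here. Of 8 platelet markers Pf4 is listed for TSP1F/F mice, at 0 to 0.858 CPM on LF and 2.21 to 4.58 CPM on AMLN, and of 6 muscle markers 1 is listed in each table, none above 2.16 CPM in a mouse. The muscle marker Acta1 was at 0 in all 4 LF-fed TSP1F/F mice, and no other listed marker was at 0 in every mouse of a group. The part of any cell type in the values of the 4 genes was not tested.

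Genes with a pattern like that of each member were sought among 673 genes of both tables, by the root mean square difference of centred log2 values over the 16 mice, where a smaller value means a closer pattern. Closest to Lpl were Ear2 (0.58), Lgals3 (0.60) and Ubd (0.63), against a median of 1.33 over all genes. Lgals3 is also one of the macrophage markers summed above. It had means of 3.27 and 34.9 CPM in LF-fed and AMLN-fed TSP1F/F mice and 4.36 and 10.8 CPM in the TSP1ΔPf4 groups. Closest to Fabp4 were Anxa2 (0.45), S100a11 (0.51) and Uap1l1 (0.53), against a median of 0.92.

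Closest to Cd36 was Ermp1 (0.35), against a median of 0.82, and closest to Plin4 were Slc39a4 (0.38), Siglec1 (0.46) and Tagln2 (0.48), against a median of 0.91. The members were not close to each other by this measure, with values from 0.80 for Fabp4 and Plin4 to 1.19 for Lpl and Cd36. The values share libraries, and the genes searched were all selected for a difference between diets.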

How the data were processed

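Liver RNA of 16 mice, 4 per group, was sequenced. Per the paper reads were aligned to mm10 with STAR, whereas the submitters' processing notes name HISAT2, DESeq2 and mm10. The counting program, annotation release and use of strand are not given in the sources used here. The authors deposited counts per gene, counts divided by a size factor (signal values) and FPKM per mouse, and their own log2 fold changes and p-values from DESeq2. The deposited p-values served only to establish how the tables were selected and the number of genes adjusted over (16784 for TSP1F/F, 13927 for TSP1ΔPf4), and the deposited log2 fold changes were not used.

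Library totals followed from each count, its FPKM and the gene length. The quasi-likelihood test of edgeR 4.0.16 (limma 3.58.1, R 4.3.3) was run after filterByExpr with a prior count of 0.125. Because the tables hold selected genes, the shared dispersion rests on them, and p-values are approximate. Diet p-values were adjusted by Benjamini-Hochberg over the authors' numbers of genes, others over the genes tested. Exact permutation tests used log2(CPM + 1). The numbered samples were taken as separate mice. The check of replicate numbers as pairs and all alternatives (DESeq2 1.42.0, TMM, the authors' size factors, no filter, a replicate block, other adjustments, 1 mouse left out) are given in the closing section.

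The members and gene lists were chosen with earlier results of these data known. The named pathway genes are those called and otherwise at most 3 per list with the largest changes. Plin3 and Apoa5, outside this rule, were named after their values were seen. So were Lyz2 and the Kupffer cell, stellate cell, endothelial and hepatocyte markers whose fold changes are given singly.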

Additional observations from a re-analysis of the deposited data

Results flagged for a closer look

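Lpl in LF-fed TSP1F/F replicate 3 stood apart from the other mice of its group, at 20.8 CPM against 8.31 to 8.93 CPM. Its gap to the nearest mouse was 0.950 of the group's range, above Dixon's 95% limit for 4 samples, a limit that chance passes in about 1 of 20 groups, and 16 groups of values were examined. Without this mouse the log2 fold change of Lpl between diets in TSP1F/F mice was 4.36 instead of 3.92, and the interaction was -2.26 instead of -1.81.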

How the results depend on the processing

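Lpl and Fabp4 kept their direction in both diet comparisons and between the AMLN-fed genotypes in every alternative run, and Cd36 and Plin4 kept theirs in both diet comparisons. Calls that changed were as follows, and the causes were not tested. Plin4 for the diet in TSP1F/F mice (1.87) was called when adjusted over the listed genes alone (1.87) and by DESeq2 with the authors' size factors (1.88), Fabp4 for the diet in TSP1ΔPf4 mice by DESeq2 (1.49), Fabp4 between the AMLN-fed genotypes (-1.25) and the interaction of Lpl (-1.82) by DESeq2 with the authors' size factors. Lpl between the AMLN-fed genotypes was not called with TMM (-1.11). Plin4 changed sign between the AMLN-fed genotypes with DESeq2 (0.27) and TMM (0.21), between the LF-fed genotypes with the authors' size factors (-0.016, and -0.015 by DESeq2 with them) and in the interaction with DESeq2 (0.25) and TMM (0.31).

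Replicate numbers were not taken as pairs, and the check of them cannot settle whether same-numbered mice shared a factor. Over all comparisons same-numbered mice correlated, in their deviations from group means, from -0.51 to 0.52. In no comparison did every mouse correlate best with its own number. On AMLN the correlations were 0.31, 0.084, 0.36 and 0.45 for replicates 1 to 4, with the own number best in 3 of 4. With the replicate number as a block, Fabp4 for the diet in TSP1F/F mice (2.57) and Lpl (2.10), Cd36 (1.12) and Plin4 (1.79) for the diet in TSP1ΔPf4 mice were not called, and Fabp4 between the AMLN-fed genotypes (-1.36, edgeR adjusted p = 0.00236, against 0.0854 without the block) was. Genes called higher and lower with the block were 10 and 0 (diet, TSP1F/F), 4 and 0 (diet, TSP1ΔPf4), 13 and 103 (genotypes on AMLN), and 0 and 0 (interaction).

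With 1 mouse left out, the log2 fold changes ranged as follows. In the diet comparison of TSP1F/F mice Lpl was at 3.48 to 4.36, Cd36 at 0.59 to 1.17, Fabp4 at 2.32 to 2.84 and Plin4 at 1.60 to 2.34. In TSP1ΔPf4 mice Lpl was at 1.87 to 2.32, Cd36 at 1.08 to 1.21, Fabp4 at 0.62 to 1.52 and Plin4 at 1.65 to 1.98. Between the AMLN-fed genotypes Lpl was at -1.68 to -1.0, Cd36 at -0.033 to 0.17, Fabp4 at -1.68 to -0.99 and Plin4 at -0.20 to 0.15. Between the LF-fed genotypes Lpl was at 0.16 to 0.82, Cd36 at -0.46 to 0.11, Fabp4 at -0.21 to 0.54 and Plin4 at -0.24 to 0.51. In the interaction Lpl was at -2.26 to -1.37, Cd36 at -0.035 to 0.54, Fabp4 at -1.90 to -1.0 and Plin4 at -0.56 to 0.18.

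Counts of genes called moved far more than the members. For the diet in TSP1F/F mice 50 were called higher and 2 lower, against 285 and 456 with DESeq2, 448 and 115 by DESeq2 with the authors' size factors, 56 and 6 with TMM, 80 and 3 without a filter, and 807 and 317 adjusted over the listed genes alone. In TSP1ΔPf4 mice 45 and 47 became 1010 and 366, 399 and 674, 160 and 38 with TMM, 44 and 34 with the authors' size factors, and 825 and 1362 adjusted over the listed genes. Between the AMLN-fed genotypes 4 and 62 became 17 and 56, 7 and 104, 11 and 37 with TMM, and 7 and 47 with all 16 mice in 1 fit. On the LF diet both DESeq2 fits called 1 higher. In the interaction 0 and 3 became 12 and 32, 12 and 46, 8 and 7 with TMM, and 2 and 6 with the authors' size factors. With 1 mouse left out the counts ranged from 2 to 59 higher (diet, TSP1F/F), 1 to 83 higher and 0 to 103 lower (diet, TSP1ΔPf4), and 21 to 81 lower (genotypes on AMLN).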
